A study of Mus musculus with 7 samples.

Results

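The nuclear genes for respiratory complexes II to V were compared in mouse haematopoietic stem cells cultured with solvent, with gemcitabine or with hydroxyurea, which both disturb DNA replication. The genes were taken by symbol: Sdha, Sdhb, Sdhc and Sdhd for complex II, Cyc1 and symbols starting with Uqcr for complex III, symbols starting with Cox4i, Cox5, Cox6, Cox7 and Cox8 for complex IV, symbols starting with Atp5 for complex V, and Cycs for cytochrome c. Of the 52224 genes in the table, 62 rows carried such a symbol, and 12 of them were pseudogenes with names ending in ps, which were left out. Of the 50 rows kept, 46 passed the filter on low values, which asked for 2 or more of the 7 libraries at an FPKM of 1 or above. FPKM counts sequenced fragments scaled by transcript length and library size. The 46 genes were 4 of complex II, 9 of complex III, 15 of complex IV, 17 of complex V and Cycs. The 4 rows that did not pass were Cox4i2, Cox7b2, Cox8b and Cox8c, which stayed below 1 in every library.

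The cells were CD48-CD150+LSK cells, a surface phenotype that enriches stem cells of the blood, sorted from wild-type C57BL/6J bone marrow. They were kept for 48 h with DMSO (3 libraries), gemcitabine at 0.5 µM (Gem, 2 libraries) or hydroxyurea at 100 µM (HU, 2 libraries). Gemcitabine is a cytidine analogue that stops DNA chains and inhibits ribonucleotide reductase, and hydroxyurea inhibits the same enzyme. Nothing in the labels ties the libraries of a group to separate mice or separate cultures. The p-values therefore measure only how far these libraries spread, and that spread may be technical.

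The respiratory chain sits in the inner mitochondrial membrane. Complex II passes electrons from succinate to ubiquinone, complex III passes them on to cytochrome c, complex IV hands them to oxygen, and complex V, the ATP synthase, uses the proton gradient to make ATP. Complexes III to V are built from nuclear and mitochondrial gene products together, whereas complex II is wholly nuclear. Resting stem cells of the bone marrow are known for relying little on respiration and for raising it when they leave rest.

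Facts of the whole table bear on all values below. FPKM summed over all genes was 818775 to 832979 in the DMSO libraries, 703016 and 729258 in Gem and 647760 and 651315 in HU. The number of genes above 0 ran the other way, from 21251 to 23047 in DMSO and from 27887 to 31153 in the drug libraries. The commonest low value per kilobase, taken as 1 fragment, gives about 10.9 to 17.7 M fragments in DMSO, 8.79 and 12.1 M in Gem and 7.96 and 8.24 M in HU (M is the SI prefix mega). These depths are approximate and take FPKM as divided by mapped fragments. The median log2 fold change of all 13865 genes tested was -0.25 in Gem and -0.30 in HU, and changes of the respiratory genes are given beside those medians. They are also given after trimmed-mean scaling, which multiplies each library by 1 factor so that most genes do not shift, and are then called scaled. The share of the genes' summed FPKM in all FPKM needs no such factor.

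The sorted phenotype was only partly visible in the RNA after culture. Among 7 stem cell markers, Kit (28.98 to 48.22 FPKM), Ly6a (14.74 to 48.31) and Procr (9.06 to 17.04) were present, and Slamf1, which encodes CD150, stayed at or below 1.25. Fgd5 stayed at or below 0.50 FPKM and Mecom at or below 1.71. The 6 monocyte and macrophage markers summed to 25606 to 34911 FPKM in DMSO, 37455 and 38231 in Gem, and 35035 and 39069 in HU. Nearly all of that sum was Lyz2 (21718 to 36422 FPKM), and the other 5 had negative fold changes. Of the 6, 3 were called lower in Gem and 4 in HU, as were 23.2% and 35.5% of all genes tested. After scaling 0 of the 6 were called lower with either drug. The only scaled call was Lyz2 in HU, which was higher (log2 fold change 0.79, limma adjusted p = 0.0481). The 5 mast cell and basophil markers summed to 278 to 1332 in DMSO, 210 and 393 in Gem, and 195 and 197 in HU, so they were lower with HU than in any DMSO library. The 8 neutrophil markers summed to 10766 to 17179 in DMSO and 10695 to 14183 with a drug, and the 5 megakaryocyte markers to 1717 to 2780 and 1339 to 1781. The 7 stem cell markers themselves summed to 87.7 to 116 in DMSO and 61.3 to 73.8 with a drug. The 6 erythroid markers held 40.6 to 72.7 FPKM in DMSO and 29.3 to 31.5 in the drug libraries. These sums are of deposited FPKM without scaling, and total FPKM was lower with a drug. After scaling, 0 stem cell, mast cell and basophil, neutrophil, megakaryocyte or erythroid markers were called in Gem. In HU only 1 stem cell marker (Ly6a) and 1 mast cell and basophil marker (Fcer1a) of these lists were called, both lower. Of all genes tested, 0.469% were then lower in Gem and 5.27% in HU. In bulk RNA, fewer cells of a type and less RNA per cell cannot be told apart. The part of these shifts in the values of the respiratory genes was not tested.

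Promoters of respiratory genes are known for sites of NRF1 and of GABP, both activators of nuclear genes for mitochondrial proteins. Stretches before the start of 4 genes are shown because they hold exact letters of these motifs and because all 4 genes fell with both drugs. They come from RefSeq (GRCm38.p6), all on the minus strand of the genome, and leave out annotated untranslated bases. Uqcr11 is a small subunit of complex III (chr10:80406831-80407071), Cox6a1 a subunit of complex IV (chr5:115348982-115349208), and Atp5e (chr2:174464106-174464351) and Atp5l (chr9:44920743-44920992) are the epsilon and g subunits of complex V. They are written 5′ to 3′ along the gene, with motif letters in capitals.
Uqcr11: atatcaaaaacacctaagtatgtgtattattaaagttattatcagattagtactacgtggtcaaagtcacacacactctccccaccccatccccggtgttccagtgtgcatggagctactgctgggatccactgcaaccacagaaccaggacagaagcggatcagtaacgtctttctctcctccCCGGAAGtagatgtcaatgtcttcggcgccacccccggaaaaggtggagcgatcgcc
Cox6a1: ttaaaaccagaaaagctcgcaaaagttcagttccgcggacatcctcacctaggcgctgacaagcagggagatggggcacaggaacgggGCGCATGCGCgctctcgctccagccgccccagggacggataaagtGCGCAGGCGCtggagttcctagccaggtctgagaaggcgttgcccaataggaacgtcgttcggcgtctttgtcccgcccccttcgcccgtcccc
Atp5e: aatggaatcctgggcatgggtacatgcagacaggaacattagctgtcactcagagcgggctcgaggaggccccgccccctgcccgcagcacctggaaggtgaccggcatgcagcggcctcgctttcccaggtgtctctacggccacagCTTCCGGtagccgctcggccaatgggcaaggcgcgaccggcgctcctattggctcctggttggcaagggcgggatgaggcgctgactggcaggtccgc
Atp5l: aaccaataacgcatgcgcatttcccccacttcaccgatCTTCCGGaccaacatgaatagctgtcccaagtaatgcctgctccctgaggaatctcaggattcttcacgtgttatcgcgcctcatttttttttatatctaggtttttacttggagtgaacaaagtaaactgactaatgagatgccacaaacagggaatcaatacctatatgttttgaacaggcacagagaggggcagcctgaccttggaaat
The GABP letters CCGGAAG, or their reverse complement, start 66 bases before the start of Uqcr11, 102 before that of Atp5e and 212 before that of Atp5l. Cox6a1 has the NRF1 letters, GCGCA and GCGC with any 1 base between them, 162 and 117 bases before its start. It also has the GABP letters 16 bases before its start, past the end of the stretch shown.

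Of the 46 genes, 35 matched the promoter table, which gives 250 bases before and 50 after a start. On either strand, the NRF1 letters stood in the window of 10 of the 35 genes (28.6%), against 5.19% of the 27025 genes in the table. CCGGAAG stood in 13 (37.1%), against 9.93%. The YY1 letters AAGATGGC stood in 3 (8.57%), against 3.19%, and the CRE letters TGACGTCA in 2 (5.71%), against 2.03%. No matches of different motifs overlapped. Across the 13 genes with the GABP letters the median log2 fold change was -0.68 in Gem and -0.95 in HU, and across the 22 without them it was -0.48 and -0.69. For the NRF1 letters the medians were -0.66 and -0.86 with them and -0.61 and -0.90 without. Of the 13 genes with the GABP letters, all but Sdhb (1142 bases) and Sdhd (1231) have transcripts of 362 to 742 bases. Shorter genes of the set had the lower fold changes, as given below. The 22 genes without the GABP letters run from short ones such as Uqcr10 (434 bases) to long ones such as Cycs (3123). Letters and length were not separated. A match is a description of letters, not a bound site, and these medians were not tested.

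With either drug, most nuclear genes of complexes II to V had less RNA than with DMSO, in all 4 complexes. In Gem, 39 of the 46 genes fell and none rose at an adjusted p below 0.05 (limma on log2 of FPKM + 1, Benjamini-Hochberg over all genes tested), while 23.2% of all genes tested fell and 1.50% rose. In HU, 43 fell and none rose, while 35.5% of all genes fell and 4.46% rose. At an unadjusted p below 0.05, 40 were lower in Gem (36.6% of all genes were lower and 3.02% higher) and 44 in HU (43.3% lower and 5.75% higher). The median log2 fold change of the 46 was -0.61 in Gem and -0.88 in HU, which is 0.37 and 0.58 below the medians of all genes. The HU and Gem comparisons share the DMSO libraries. Of the 46 genes, 42 were lower in every drug library than in every DMSO library, as were 42.6% of all genes, and the exceptions were Cox6c2, Cox7a1, Atp5d and Cycs. After scaling, 33 of the 46 still were, against 11.1% of all genes.

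Together the 46 genes made up 2.0%, 2.01% and 1.82% of all FPKM in the DMSO libraries. The share was 1.52% and 1.46% in the Gem libraries and 1.41% and 1.39% in the HU libraries. All 4 drug libraries lay below all 3 DMSO libraries, and both HU libraries lay below both Gem libraries. The third DMSO library stood nearest to the drug libraries: over the 46 genes, the median log2 deviation from the DMSO mean less that of all genes was -0.08 there, 0.03 and 0.05 in the other two, -0.33 and -0.36 in Gem and -0.54 and -0.55 in HU.

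**Figure D1:**
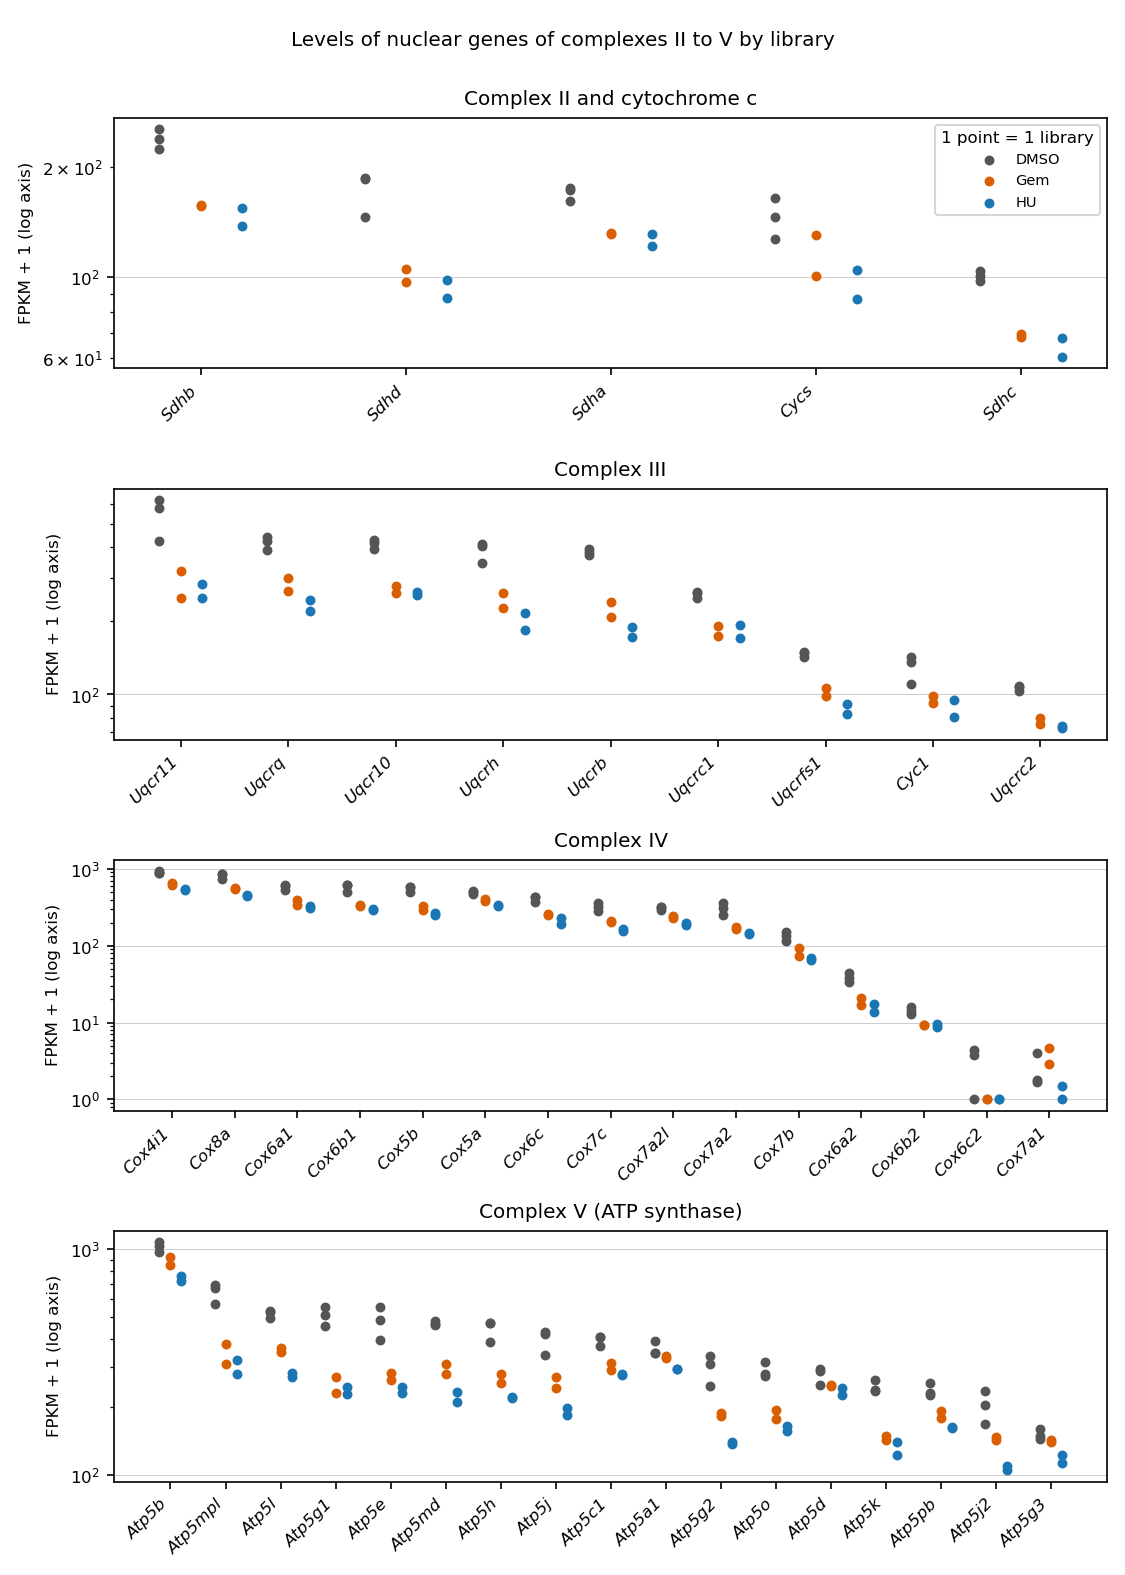
FPKM + 1 on a log axis for the 46 genes by library, in 1 panel for complex II with cytochrome c and 1 each for complexes III, IV and V, with grey points for DMSO, orange for Gem and blue for HU. For 42 of the 46 genes every drug point lies below every DMSO point.

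The calls in Gem moved more with scaling and with 1 library than those in HU. After trimmed-mean scaling, 3 genes fell in Gem (Uqcrb, Cox5b and Atp5g1), with 0.469% of all genes lower and 0.483% higher, and the median of the 46 was -0.32, or 0.33 below that of all genes. After the same scaling, 30 genes fell in HU, with 5.27% of all genes lower and 4.75% higher, and their median was -0.51. Without the second Gem library, 0 of the 46 genes passed in Gem by limma's adjusted p, although 37 had an unadjusted p below 0.05, and 0 of all genes tested fell. Their median log2 fold change was then -0.56, 0.33 below that of all genes, against -0.61 and 0.37 with that library, so the size changed little.

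The 4 genes of complex II all fell with both drugs, where 23.2% of all genes tested fell in Gem and 35.5% in HU. The membrane anchor Sdhd fell furthest of the 4. Sdhd stood at 185.97, 183.83 and 145.21 FPKM in DMSO, 104.02 and 95.66 in Gem, and 86.78 and 96.83 in HU. The flavoprotein Sdha, which holds the succinate site, stood at 171.47, 160.70 and 173.66 in DMSO, 130.50 and 129.89 in Gem, and 120.69 and 129.98 in HU. For neither gene did drug and DMSO libraries overlap, and the Gem and HU libraries overlapped for both. In Gem the log2 fold change was -0.77 (SE 0.12, limma adjusted p = 0.00845) for Sdhd and -0.37 (SE 0.07, adjusted p = 0.0125) for Sdha. In HU it was -0.89 (adjusted p = 0.00208) and -0.43 (adjusted p = 0.00393). The iron-sulphur subunit Sdhb fell by 0.60 on the log2 scale in Gem and by 0.71 in HU, and the other anchor, Sdhc, fell by 0.54 and by 0.65. After scaling, Sdhb and Sdhd still fell in HU (adjusted p = 0.029 and 0.025), Sdha and Sdhc did not pass (0.662 and 0.0581), and none of the 4 passed in Gem.

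All 9 genes of complex III fell with both drugs, against 23.2% of all genes tested in Gem and 35.5% in HU. After scaling 1 of the 9 fell in Gem and 6 in HU, against 0.469% and 5.27% of all genes. The median of the small subunits was lower than that of the core. The median log2 fold change of the 4 core genes (Cyc1, Uqcrfs1, Uqcrc1 and Uqcrc2) was -0.47 in Gem and -0.54 in HU, and that of the 5 small subunits was -0.68 and -0.95, a difference that was not tested. The groups overlapped in HU, where the core gene Uqcrfs1, the iron-sulphur protein, fell by 0.74 and the small subunit Uqcr10 by 0.68, both named after their values were seen. Uqcr11 stood at 624.42, 576.57 and 423.29 FPKM in DMSO, 319.37 and 247.91 in Gem, and 246.43 and 281.27 in HU. Its DMSO libraries spread widely, but the lowest of them still stood above every drug library. Uqcr11 fell by 0.92 on the log2 scale in Gem (SE 0.18, limma adjusted p = 0.0136) and by 1.02 in HU (adjusted p = 0.00508). Uqcrb, which lies by the ubiquinone site, stood at 392.58, 381.73 and 370.25 in DMSO, 238.07 and 207.01 in Gem, and 171.53 and 188.42 in HU. The 3 DMSO libraries agreed closely for Uqcrb, and both HU libraries lay below both Gem libraries. It fell by 0.78 in Gem and by 1.08 in HU, and the fall passed after scaling in both (adjusted p = 0.0386 and 0.00453). Uqcrb shares exonic bases with a predicted gene on the other strand, and without strand their reads cannot be told apart.

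Of the core genes of complex III, Uqcrc1, a scaffold subunit, stood at 258.68, 261.81 and 247.15 FPKM in DMSO, 189.82 and 172.05 in Gem, and 169.96 and 191.17 in HU, so the drug groups overlapped each other and not DMSO. It fell by 0.50 on the log2 scale with either drug (adjusted p = 0.00904 in Gem and 0.0037 in HU). Cyc1, the cytochrome that hands electrons to cytochrome c, fell by 0.43 and 0.56, and the other scaffold subunit Uqcrc2 fell by 0.45 and 0.53. The hinge protein Uqcrh fell by 0.68 and 0.95.

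Cytochrome c itself moved less in Gem. Cycs stood at 163.70, 144.86 and 126.00 FPKM in DMSO, 129.30 and 99.44 in Gem, and 103.38 and 85.91 in HU. The higher Gem library lay above the lowest DMSO library, while both HU libraries lay below all DMSO libraries. The log2 fold change was -0.34 in Gem (SE 0.15, adjusted p = 0.139), and Cycs fell by 0.61 in HU (adjusted p = 0.0176), where it did not pass after scaling (0.344).

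In complex IV all 11 main isoforms fell with both drugs, with a median log2 fold change of -0.67 in Gem and -0.96 in HU. Of all genes tested, 23.2% fell in Gem and 35.5% in HU. After scaling 1 of the 11 fell in Gem and 10 in HU, against 0.469% and 5.27% of all genes. Cox5b, which binds zinc on the matrix side, stood at 576.48, 576.37 and 492.79 FPKM in DMSO, 327.01 and 293.43 in Gem, and 251.24 and 263.46 in HU. The 3 groups did not overlap, with HU lowest. Cox5b fell by 0.82 on the log2 scale in Gem (SE 0.10, limma adjusted p = 0.00575) and by 1.09 in HU (adjusted p = 0.00102), and after scaling it passed in both (0.041 and 0.00665). Cox5a, the other subunit of that pair, fell less, by 0.34 and 0.56, and did not pass after scaling (0.864 and 0.182). Cox4i1, the main isoform of the largest nuclear subunit, stood at 935.06, 874.99 and 895.18 in DMSO, 649.84 and 622.77 in Gem, and 550.13 and 536.48 in HU. Its 3 groups did not overlap either, and it fell by 0.50 and 0.73. Cox6b1 fell by 0.79 and 0.96, Cox7a2 by 0.84 and 1.09, Cox6a1 by 0.68 and 0.87, and Cox8a by 0.57 and 0.87. Cox7a2l, counted among the 11 by its symbol, fell by 0.39 in Gem and 0.71 in HU.

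Complex IV has isoforms that are known from muscle, testis or lung, and 2 of them were measured above 5 FPKM. Cox6a2, the heart and skeletal muscle isoform of Cox6a, stood at 36.53, 42.71 and 32.46 FPKM in DMSO, 19.63 and 15.69 in Gem, and 12.73 and 16.26 in HU. The highest drug library lay well below the lowest DMSO library. Cox6a2 fell by 1.03 on the log2 scale in Gem (SE 0.16, limma adjusted p = 0.00811) and by 1.30 in HU (adjusted p = 0.00155), the largest called fall of the 46 genes in each comparison, and after scaling it passed in HU only (0.0685 and 0.0127). Its part of the summed Cox6a1 and Cox6a2 FPKM was 5.61% to 6.71% in DMSO, 4.47% and 4.78% in Gem, and 4.0% and 4.72% in HU. The muscle markers Acta1 and Myh6 stayed at or below 0.08 and 0.74 FPKM and Ckm and Tnnt2 at or below 1.39 and 2.43. Cox6a2 (chr7:128205435-128206387, GRCm38, minus strand) shares exonic bases with Itgad on the plus strand, so reads of the pair cannot be told apart.

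Cox6b2, the testis isoform of Cox6b, stood at 13.07, 12.06 and 14.89 FPKM in DMSO, 8.33 and 8.39 in Gem, and 7.71 and 8.45 in HU, and fell by 0.61 and 0.66 (adjusted p = 0.013 and 0.0052). Its part of the Cox6b pair was 1.92% to 2.93% in DMSO and 2.41% to 2.83% in the drug libraries, within the DMSO range. Cox7a1, the muscle isoform of Cox7a, stood at 0.70, 2.99 and 0.76 in DMSO, 1.90 and 3.59 in Gem, and 0.50 and 0 in HU, and passed the filter through 3 libraries. It did not pass the test (adjusted p = 0.281 in Gem and 0.135 in HU). Cox6c2, annotated as a processed pseudogene, was listed at 0, 2.81 and 3.38 in DMSO and at 0 in all 4 drug libraries. It passed the filter only through DMSO, so no fold is given.

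Complex V held both large falls and some of the smallest changes. In Gem 13 of its 17 genes fell, and in HU 16 fell, against 23.2% and 35.5% of all genes tested. After scaling 1 and 11 fell, against 0.469% and 5.27% of all genes. The 5 genes of the F1 head and central stalk, where ATP is made, had a median log2 fold change of -0.21 in Gem and -0.47 in HU, near the median of all genes in Gem (-0.25). After scaling these F1 medians were 0.09 and -0.10, and with transcript length and level corrected for they were 0.05 and 0.07. As deposited, the 4 genes of the peripheral stalk had -0.63 and -0.93, the 3 genes of the c ring -0.68 and -1.10, and the 5 other membrane subunits -0.67 and -0.91. After scaling these medians were, in the same order, -0.33 and -0.56, -0.37 and -0.73, and -0.37 and -0.54. With length and level corrected for they were -0.25 and -0.33, -0.33 and -0.51, and -0.39 and -0.37. The difference between these groups of subunits was not tested.

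Within the F1 head, Atp5a1, the alpha subunit, stood at 346.15, 346.90 and 390.57 FPKM in DMSO, 335.85 and 327.61 in Gem, and 294.60 and 293.39 in HU. The Gem libraries lay just below the lowest DMSO library, and its log2 fold change was -0.12 in Gem (SE 0.08, limma adjusted p = 0.283), while it fell by 0.29 in HU (adjusted p = 0.0205). The delta subunit Atp5d stood at 293.49, 287.33 and 248.66 in DMSO, 249.20 and 248.39 in Gem, and 241.73 and 225.11 in HU. Gem and DMSO overlapped, and neither drug passed (-0.15, adjusted p = 0.254, and -0.24, adjusted p = 0.0662). After scaling the sign turned for both genes with both drugs, to 0.18 and 0.07 for Atp5a1 and 0.16 and 0.13 for Atp5d, and none of these passed. The epsilon subunit Atp5e, of the same head, had the lowest fold changes of the 5. It stood at 486.25, 554.18 and 394.60 in DMSO, 283.00 and 263.92 in Gem, and 245.44 and 230.78 in HU, and fell by 0.79 and 0.99 (adjusted p = 0.00963 and 0.00208), of which only HU passed after scaling (0.12 and 0.0247). The catalytic beta subunit Atp5b, named after its values were seen, stood at 977.40 to 1074.33 in DMSO, 849.48 and 925.19 in Gem, and 724.77 and 763.71 in HU, with log2 fold changes of -0.21 (adjusted p = 0.0962) and -0.47 (adjusted p = 0.00493). After scaling they were 0.09 and -0.10, and neither passed.

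**Figure D2:**
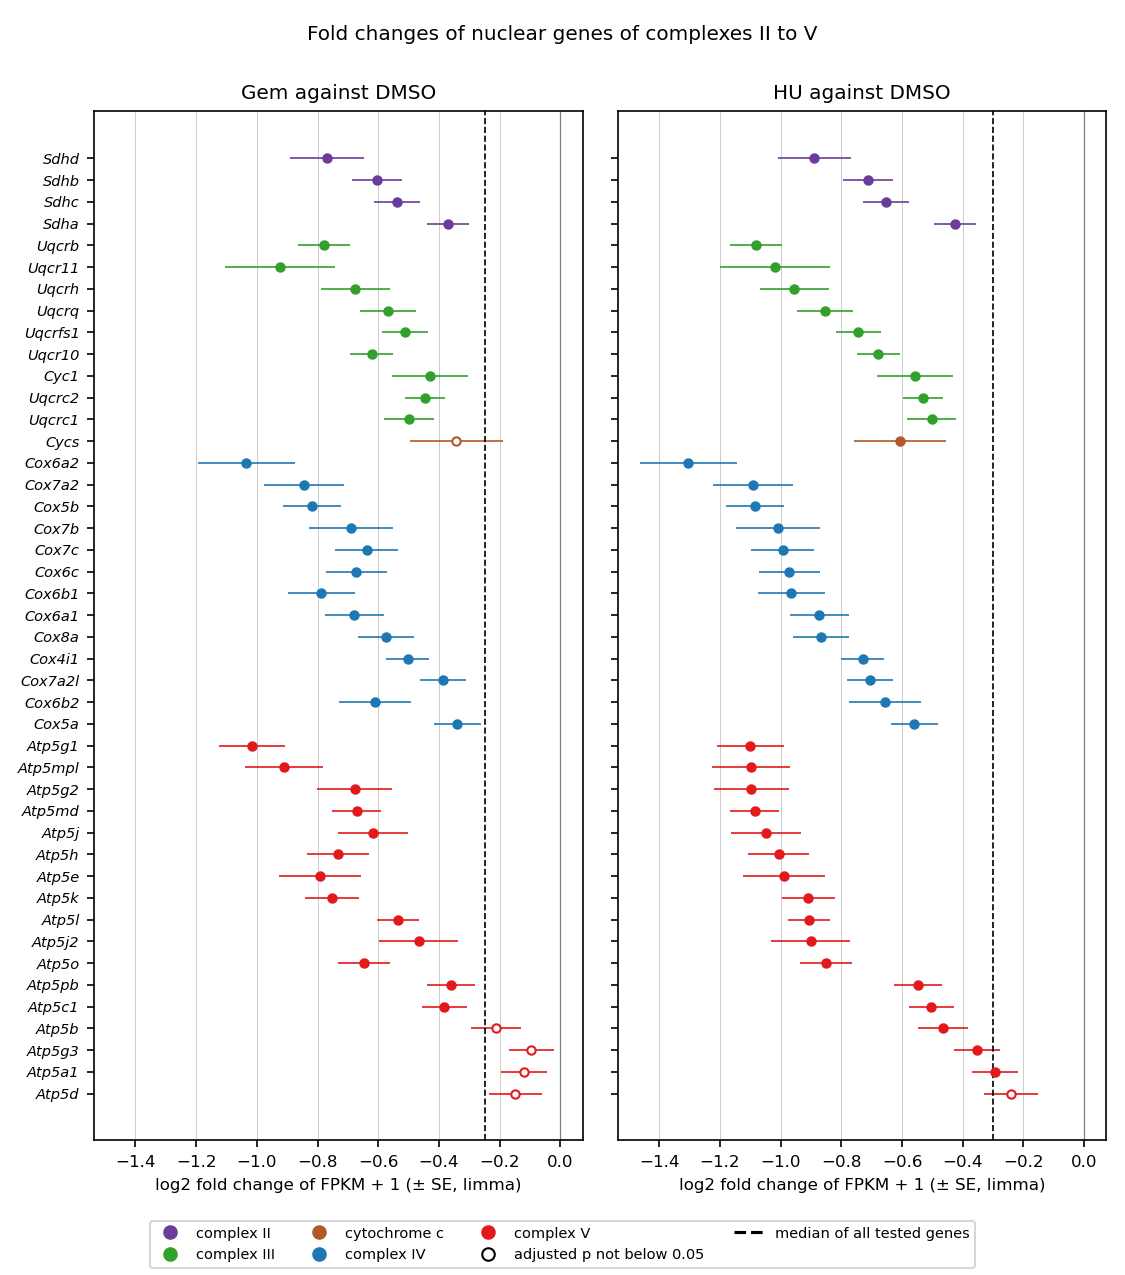
Log2 fold change of FPKM + 1 against DMSO with its standard error (limma) for 44 genes, Gem left and HU right, coloured by complex, with open circles where the adjusted p is not below 0.05 and a dashed line at the median of all genes tested. Cox6c2 and Cox7a1 are left out as low. Most points lie left of the dashed line, and Atp5a1, Atp5b, Atp5d and Atp5g3 lie to its right in Gem.

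The c ring, the rotor that protons turn, is made of 1 subunit that is encoded by 3 genes, Atp5g1, Atp5g2 and Atp5g3, and these did not move alike. Atp5g1 (chr11:96068852-96075670, GRCm38, minus strand) stood at 553.47, 513.22 and 454.53 FPKM in DMSO, 271.29 and 229.46 in Gem, and 243.97 and 227.04 in HU. Atp5g2 stood at 336.45, 309.00 and 247.96 in DMSO, 187.81 and 181.06 in Gem, and 136.30 and 138.92 in HU. Atp5g3 (chr2:73908447-73911326, GRCm38, minus strand) stood at 158.92, 143.97 and 147.39 in DMSO, 138.84 and 141.61 in Gem, and 122.07 and 112.49 in HU. Drug and DMSO libraries did not overlap for any of the 3 genes, but the gap was narrow for Atp5g3 in Gem. Atp5g1 was 50.6% lower in Gem and 53.6% lower in HU by mean FPKM, with log2 falls of 1.02 (SE 0.11, limma adjusted p = 0.00569) and 1.10 (adjusted p = 0.00105). Atp5g2 fell by 0.68 (adjusted p = 0.0114) and 1.10 (adjusted p = 0.00131). For Atp5g3 the log2 fold change was -0.10 in Gem (SE 0.07, adjusted p = 0.372), and it fell by 0.35 in HU (adjusted p = 0.00924); after scaling its values were 0.21 and 0.01, and neither passed. Atp5g1 passed after scaling in both comparisons (adjusted p = 0.0309 and 0.0103).

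As a share of the 3 genes' summed FPKM, Atp5g1 held 52.8%, 53.1% and 53.5% in DMSO, 45.4% and 41.6% in Gem, and 48.6% and 47.5% in HU. Atp5g3 held 15.2%, 14.9% and 17.3% in DMSO, 23.2% and 25.6% in Gem, and 24.3% and 23.5% in HU. For both genes the drug libraries stood clear of the DMSO libraries, Atp5g1 below and Atp5g3 above, whereas Atp5g2 (29.2% to 32.1% in DMSO and 27.1% to 32.8% with a drug) overlapped. These shares are free of library scaling but were not tested. The 3 genes encode a near-identical mature protein, and how reads in shared sequence were assigned is not given in the sources used here.

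**Figure D3:**
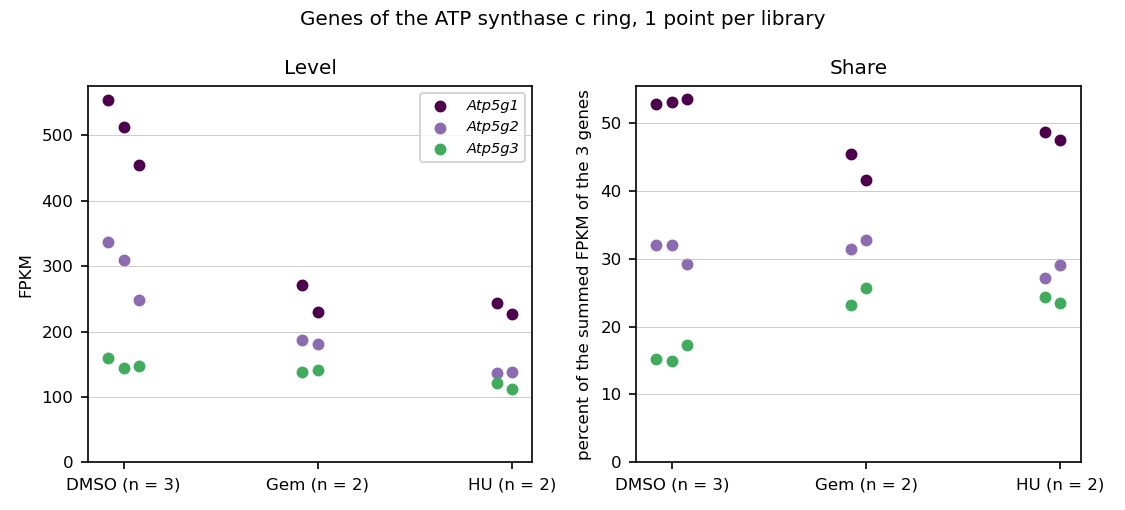
Left, FPKM of Atp5g1, Atp5g2 and Atp5g3 by library; right, the percent each holds of their summed FPKM, in DMSO (n = 3), Gem (n = 2) and HU (n = 2). Atp5g1 loses share in all 4 drug libraries and Atp5g3 gains it, from at most 17.3% in DMSO to at least 23.2%.

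Among the other membrane subunits, Atp5mpl, the small proteolipid, stood at 671.87, 697.84 and 574.79 FPKM in DMSO, 381.82 and 308.70 in Gem, and 323.41 and 280.89 in HU, and fell by 0.91 and 1.10 on the log2 scale (limma adjusted p = 0.00699 and 0.00141). Its drug groups overlapped each other and lay far below DMSO. Atp5l and Atp5md, small subunits where synthase dimers meet, had the smallest p between the drugs. Atp5l stood at 526.30, 532.65 and 497.12 in DMSO, 365.47 and 349.84 in Gem, and 282.11 and 270.34 in HU. Atp5md stood at 482.58, 466.85 and 461.51 in DMSO, 310.40 and 280.11 in Gem, and 233.43 and 209.46 in HU. For both genes the 3 groups did not overlap, in the order DMSO, Gem, HU.

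Between the drugs most of the genes had lower values in HU, but no gene passed the test. With limma, 0 of the 46 genes passed an adjusted p below 0.05 in Gem against HU, where 0.0793% of all genes were called lower and 0.0216% higher in Gem. At an unadjusted p below 0.05, 19 genes were higher in Gem and none lower, against 7.32% and 3.38% of all genes. That count was 5 without the first Gem library, 9 and 8 without the first and the second HU library, and 3 after the length and level correction, where the median was 0.03. Both HU libraries lay below both Gem libraries for 34 of the 46 genes and for 27.7% of all genes. After scaling this held for 29 of the 46, and no share over all genes was computed there. The number of the 46 genes with an unadjusted limma p below 0.05, in either direction, was 11 after trimmed-mean scaling. It was 5 with each library rescaled to the same sum. The median log2 difference, Gem minus HU, was 0.22, against 0.06 for all genes. The largest evidence was for Atp5l (0.37, SE 0.08, adjusted p = 0.252) and Atp5md (0.41, SE 0.09, adjusted p = 0.256), and Uqcrc1 (0.00, SE 0.09) and Sdha (0.06, SE 0.08) were the closest of those above 20 FPKM.

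The complexes kept nearly the same proportions to each other. Complex II held 4.15% to 4.33% of the 46 genes' summed FPKM in DMSO, 4.13% and 4.39% in Gem, and 4.42% and 4.92% in HU. Complex III held 17.0% to 17.6%, 16.0% and 16.8%, and 16.3% and 17.9% in the same order. Complex IV went from 33.9% to 34.5% in DMSO down to 33% and 33.7% in Gem and 32.7% and 32.9% in HU, the only complex with all drug libraries below all DMSO libraries. Complex V held 43.1% to 43.9% in DMSO, 44.9% and 45% in Gem, and 43.4% and 45.5% in HU. The medians of the log2 fold changes were -0.57 and -0.68 for complex II in Gem and HU, -0.57 and -0.74 for III, -0.67 and -0.96 for IV, and -0.62 and -0.91 for V. These differences between complexes were not tested.

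Shorter genes of the set had the lower fold changes. The 46 genes are short, with a median transcript of 730 bases (range 231 to 3171) against 2406 over the genes tested, and the Spearman correlation of length with the log2 fold change was 0.54 in Gem and 0.55 in HU, as a description across genes of the same libraries. It leaves out Cox6c2 and Cox7a1, which were below 1 FPKM in some libraries, and over all 13555 genes with a length it was 0.13 and 0.15. In length classes set after the data were seen, the 14 genes of up to 600 bases among the other 44 had medians of -0.68 and -0.97, and 69 other genes of that length with a mean of at least 100 FPKM had -0.62 and -1.01. Without that minimum, 1385 other genes of up to 600 bases had medians of 0.04 and 0.15. From 600 to 1000 bases, 13 genes had -0.65 and -0.96, against -0.53 and -0.75 over 165 others. From 1000 to 2000 bases, 12 genes had -0.44 and -0.55, against -0.41 and -0.58 over 293 others. The 5 longer genes had -0.37 and -0.61, against -0.28 and -0.39 over 283 others. Up to 600 bases and from 1000 to 2000 bases the medians of both sets lay close together, and in the other classes those of the respiratory genes were lower, most of all in HU.

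After a correction of each library for length and level, 1 gene still fell in Gem (Atp5g1; 0.111% of all genes lower and 0.266% higher), and 9 fell in HU (0.922% lower and 0.893% higher). The 9 were Cox5b, Cox6a2, Cox7a2, Cox7c, Atp5e, Atp5g1, Atp5g2, Atp5h and Atp5j, and the median of the 46 was then -0.25 and -0.28. The principal transcripts of Atp5g1 differ widely in length, so its corrected value is uncertain.

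**Figure D4:**
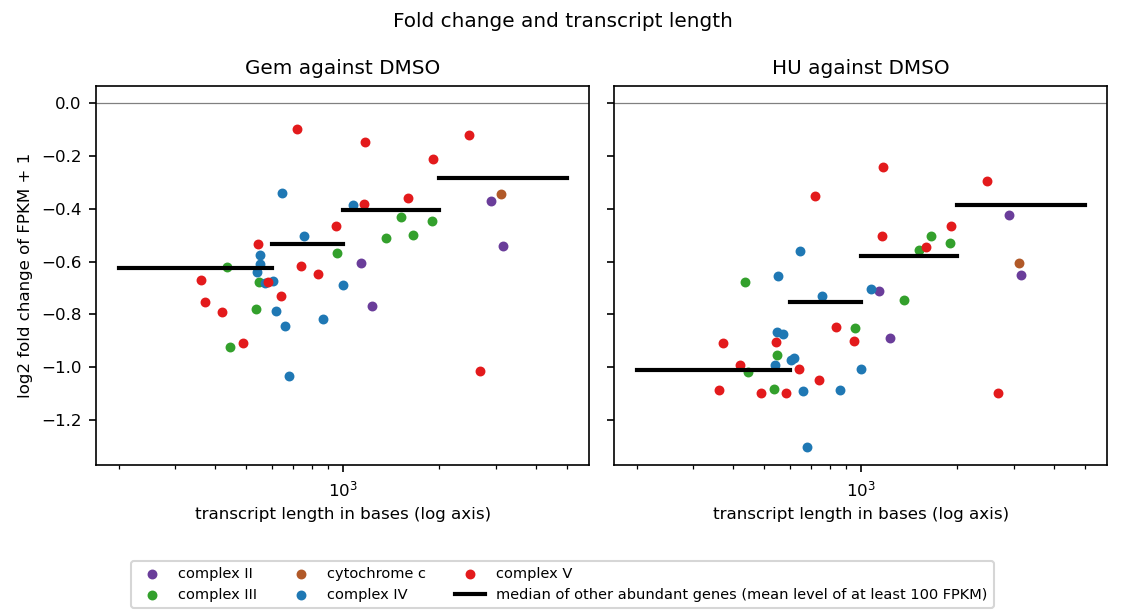
Log2 fold change of FPKM + 1 against transcript length in bases (log axis) for the 44 genes at 1 FPKM or more in all libraries, Gem left and HU right, coloured by complex, with black bars at the median of other genes with a mean of at least 100 FPKM in 4 length classes. The bars rise from -0.62 and -1.01 for the shortest class to -0.28 and -0.39 for the longest, while the points' medians in HU are about level in the 2 shortest classes (-0.97 and -0.96) and slightly lower in the longest (-0.61) than from 1000 to 2000 bases (-0.55).

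Of the 46 genes, 14 share exonic bases with another gene, among them Atp5j with Gabpa and Cox4i1 with Emc8. Among the 32 without such overlap, 27 fell in Gem and 30 in HU, against 23.2% and 35.5% of all genes. After scaling 2 and 21 of the 32 fell, against 0.469% and 5.27% of all genes. After the length and level correction 1 and 6 fell, against 0.111% and 0.922%.

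Other genes of the pathway were described from lists, with single genes named after their values were seen. Of 38 nuclear complex I subunits, 35 fell in Gem and 38 in HU, against 23.2% and 35.5% of all genes, with median log2 fold changes of -0.60 and -0.86. After scaling 3 and 26 fell, and after the length and level correction 1 and 2. Of all genes, 0.469% and 5.27% fell after scaling, and 0.111% and 0.922% after the correction. Of 35 assembly factors of complexes II to V, which are not part of the finished complexes, 16 fell in Gem and 26 in HU. Their medians were -0.41 and -0.56, and 23.2% and 35.5% of all genes fell. After scaling 1 and 7 fell, and after the length and level correction 0 and 1. Cox17, the copper chaperone of complex IV, stood at 191.34, 221.52 and 189.01 FPKM in DMSO, 95.88 and 117.80 in Gem, and 74.48 and 79.62 in HU. It fell by 0.91 and 1.37 on the log2 scale (limma adjusted p = 0.00589 and 0.00102), with no overlap between the 3 groups. After scaling Cox17 passed in HU only (limma adjusted p = 0.0685 in Gem and 0.00782 in HU). All 4 of the synthase inhibitor Atpif1 and the ADP, ATP and phosphate carriers fell with both drugs, by 0.40 to 0.45 in Gem and 0.50 to 0.64 in HU, but none of the 4 passed after scaling (medians -0.12 and -0.23) or after the length and level correction. Of 13 enzymes of the citric acid cycle, 10 fell in Gem and 13 in HU (23.2% and 35.5% of all genes), with medians of -0.43 and -0.55. After scaling 0 and 1 fell (0.469% and 5.27% of all genes), with medians of -0.13 and -0.18.

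Complexes III to V also hold mitochondrially encoded subunits, and their difference from the nuclear genes was not tested. Of 6 such genes, 0 passed limma's test in Gem (1 was lower and 1 higher at an unadjusted p below 0.05) and 4 fell in HU (mt-Cytb, mt-Co2, mt-Atp6 and mt-Atp8), where 35.5% of all genes fell, with medians of -0.08 and -0.57. mt-Co3, a core subunit of complex IV, stood at 2520.74, 2040.61 and 2053.63 FPKM in DMSO, 4066.03 and 2593.38 in Gem, and 2571.55 and 1725.42 in HU, and did not pass in either (0.57, adjusted p = 0.118, and -0.06, adjusted p = 0.861). After scaling none of the 6 passed with either drug, and the median was 0.23 in Gem and -0.20 in HU. Of 11 regulators of respiratory genes that were tested, 0 passed limma's test in Gem (1 was lower at an unadjusted p below 0.05). In HU 1, Gabpb1, fell (by 0.43, limma adjusted p = 0.0338), and 5 were lower at an unadjusted p below 0.05. Of all genes tested, 23.2% fell in Gem and 35.5% in HU, and 36.6% and 43.3% were lower at an unadjusted p below 0.05. After scaling Gabpb1 did not pass (-0.09, adjusted p = 0.75). Nrf1 stood at 24.15 to 27.30 FPKM in DMSO and 19.79 to 24.79 with a drug, and Gabpa at 10.73 to 14.60 and 8.61 to 10.57. Ppargc1a, a coactivator of these factors, stayed at or below 0.14 FPKM.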

How the data were processed

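RNA of sorted and cultured cells was sequenced in 7 libraries (3 DMSO, 2 Gem, 2 HU), grouped by the labels. Per the labels' protocols, mRNA was copied and amplified by the Geo-seq method, and a TruePrep kit turned the product into libraries; strand is not stated. The authors deposited 1 table of FPKM for 52224 genes, written to 2 decimals; mm10, HTSeq, DESeq2, Cufflinks 2.1.1 and Bowtie 0.12.9 are listed, without roles, in the submitters' processing notes. Neither the tool behind the FPKM nor the gene annotation is given in the sources used here. Unused columns of values numbered 0.

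The 13865 genes that reached an FPKM of 1 in 2 or more libraries entered limma 3.58.1 (R 4.3.3) on the log2(FPKM + 1) scale, in 1 model over 3 groups with a mean-variance trend and 4 residual degrees of freedom. Two-sided p-values received the Benjamini-Hochberg adjustment across these genes, and a gene was called below 0.05. That scale understates changes of low genes. Whole reads were not recovered, so the depth is only approximate and no interval that needs it is given. The members, the lists and the rule for named genes were chosen with earlier results of these data known. The rule took all complex II genes, Cyc1 and Cycs, isoform sets of complexes IV and V, the 3 lowest and 2 highest fold changes of complexes III, IV and V in each drug comparison (mean FPKM of at least 5), and the 2 smallest p between the drugs.

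Trimmed-mean scaling left out the outer 30% of ratios and 5% of levels on either side. Lengths are medians over principal transcripts in GENCODE M21 (GRCm38, the assembly of mm10), found for 97.8% of tested genes, and the length and level correction was a loess with a span of 0.3. The fit was checked on simulated data, with 100 genes changed by -1 and 100 by -0.6 on the log2 scale in the drug libraries. It recovered 93% and 66% of them in Gem and 93% and 70% in HU, with 13 and 6 false calls. The simulated libraries had no shift of the median gene, unlike these data, so the check does not cover calls under such a shift. Figures were drawn with Python.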

Additional observations from a re-analysis of the deposited data

How the results depend on the processing

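The count of genes that fell in Gem was 16 of 46 when each library was rescaled to the same sum (2.41% of all genes fell) and 3 with trimmed-mean scaling (0.469%). It was 1 with quantile normalization (0.144%) and 1 with the length and level correction (0.111%), against 39 (23.2%) in the main fit. Leaving out 1 library gave 0 to 39, with 0 only without the second Gem library and at least 32 otherwise. In HU the count was 9 with quantile normalization and 9 with the length and level correction, against 43, and 39 to 44 with 1 library left out. Of all genes, 35.5% fell in HU in the main fit, 1.80% with quantile normalization and 0.922% with the length and level correction. With quantile normalization 1 of the 46 genes rose in HU. Between the drugs the count stayed at 0 in all settings run. The median relative to all genes was -0.61 in Gem, -0.93 in HU and 0.25 for Gem minus HU with no filter; with a mean of at least 5 FPKM it was -0.30 in Gem and -0.48 in HU. With quantile normalization it was -0.18, -0.26 and 0.029, and with the length and level correction -0.23, -0.25 and 0.019, for Gem, HU and Gem minus HU. Where a scaling or correction shifts the median gene, its construction moves the calls; the cause of the shift itself was not tested.

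Signs turned as follows, as log2 fold changes. In Gem, Atp5a1 was 0.082, 0.18, 0.31 and 0.18, Atp5d 0.054, 0.16, 0.29 and 0.24, and Atp5g3 0.10, 0.21, 0.33 and 0.28 with the same sum, trimmed-mean scaling, quantile normalization and the length and level correction, and Atp5b was 0.091, 0.15 and 0.053 with the last 3. With the last pair, Cox5a was 0.086 and 0.017 and Cox7a2l 0.035 and 0.0068; with quantile normalization Cycs was 0.097 and Sdha 0.083. In HU, with the same 4 settings, Atp5a1 was 0.048, 0.074, 0.36 and 0.15 and Atp5d 0.10, 0.13, 0.37 (limma adjusted p = 0.0383, a rise) and 0.33. Atp5g3 was 0.013, 0.23 and 0.22 with the last 3, Cox5a 0.11 and 0.052 and Uqcrc1 0.11 and 0.023 with the last pair, and Sdha 0.18 and Atp5b 0.14 with quantile normalization. Over the named genes and all settings, 134 values in Gem and 68 in HU kept their direction and lost their call, 455 and 523 kept both, and 1 and 3 gained a call.

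The labels do not say whether the replicate numbers pair the libraries. Deviations of same-numbered libraries correlated at -0.07 to 0.06. With 2 libraries in each drug group their deviations mirror each other, so these correlations cannot decide the pairing. A replicate block gave 40 genes lower in Gem, 44 in HU and 0 between the drugs, with Cycs in Gem (limma adjusted p = 0.0214) and Atp5d in HU (0.0217) as the calls gained. The third DMSO library has no drug library of its number. The medians of the 46 genes with the block, -0.65 in Gem and -0.93 in HU, equalled those without that library. Depth is only approximate, and low values such as those of Cox7a1 carry no interval.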
